A study of Drosophila melanogaster with 6 samples.

Results

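Antisense noncoding RNAs are transcripts read from the strand opposite to another gene, so that both RNAs hold complementary sequence where their exons overlap. In flies and other animals such RNAs can pair with the sense transcript, can be cut by Dicer into small interfering RNAs, or can affect the sense gene through the act of transcription; many have no known function. FlyBase marks them by symbols that begin with asRNA. Of 17558 genes in the deposited FPKM table (fragments per kilobase of exon, scaled to the size of the library), 465 carried such a symbol, and the 33 of them with a mean of at least 2 FPKM over the 6 libraries are described here. They were thus chosen by their mean FPKM over both groups, so their levels are given as a description; the difference between the groups did not enter the choice.

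The libraries came from adult male Drosophila melanogaster, each taken 12 h after injection of the Gram-positive bacterium Micrococcus luteus. The 3 control libraries carried Gal80ts, a temperature-sensitive repressor of Gal4, with the Tub-Gal4 driver over P{CaryP}attP40, a landing site with no noncoding RNA inserted as far as the labels say. The 3 overexpressing libraries are labelled Gal80ts; Tub> NANPI and drove CR33942, a noncoding RNA that the series calls NANPI, from the tubulin driver, which is active in nearly all cells. All 6 libraries were infected, strain and overexpression differ together, and the labels name neither a tissue nor the number of flies in a library. Nothing says that libraries of a group came from separate cohorts of flies, so the error behind each p-value may be technical only.

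CR33942 stood at 18.7 to 19.5 FPKM in the control libraries and at 553 to 589 FPKM in the overexpressing libraries, as the labels say. Reads recovered from the values came to between 15084193 and 17551534 per library over the genes whose reads could be recovered. In a principal component analysis of the 12326 genes tested, overexpressing replicate 2 lay at 17.1 on the second component (19.9% of the variance), where the other overexpressing libraries lay at -8.12 and -6.63, so the counts were repeated without it, and that gave 0 called of the 33 as well. Of 12 testis, 7 accessory gland, 6 gut, 6 muscle and 9 neuron and eye markers tested, limma called 0, where 2.22% of all genes were called. At an unadjusted p under 0.05 there were 0, 1, 0, 0 and 2 of these, in that order, where 15.7% of all genes passed. At these shares lists this short would hold few genes that pass, so the counts do not show that a tissue was unchanged. Of 6 fat body markers fat-spondin was called lower, and of 5 haemocyte markers NimC1. The median log2 change was -0.32 for the fat body and -0.30 for the gut markers. For the haemocyte markers it was -0.05, with 2 of 5 above 0, so NimC1 does not stand for that list. The medians were 0.003 for testis, 0.03 for accessory gland, 0.07 for muscle and 0.07 for neuron and eye markers. The part of any tissue in the antisense RNA levels was not tested, and in these libraries fewer cells of a type and less RNA per cell cannot be told apart.

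The level of an antisense RNA followed how much of its exon was shared with exons of the opposite strand. Of the 31 antisense RNAs whose exons lay wholly inside opposite-strand exons, all 31 were at 0 in every library. Among the 172 that shared over 75% but not all of their exon, 83 were at 0, 0 reached a mean of 2 FPKM and the median was 0.00438 FPKM. Among the 116 that shared 50% to 75%, 4 reached a mean of 2 FPKM and the median was 0.273 FPKM. Among the 91 that shared 25% to 50%, 14 reached it and the median was 0.382 FPKM. Among the 54 that shared up to 25%, 14 reached it and the median was 0.883 FPKM. Only 1 of the 465, asRNA:bsAS, shared no exon at all. The 33 RNAs described here shared a median of 26.8% of their exon and at most 74.8%, where the median over all 465 was 70.9%.

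**Figure D1:**
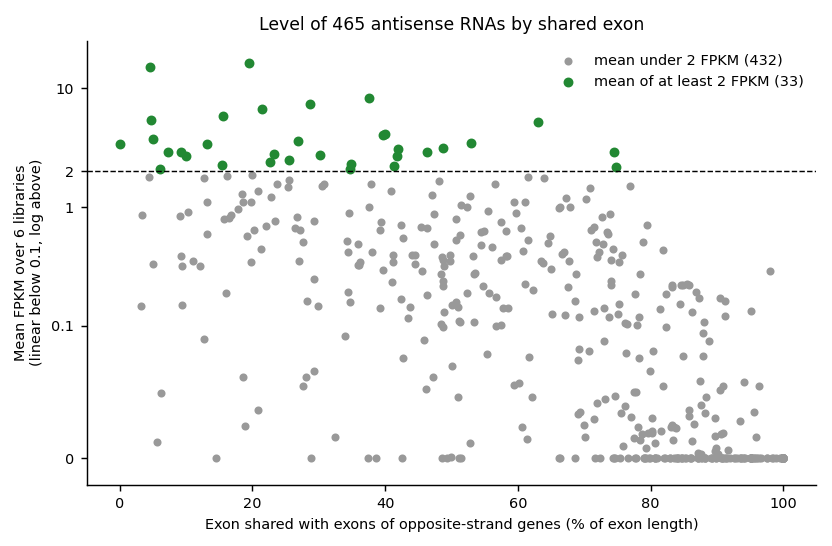
Each point is 1 of 465 antisense RNAs, with the share of its exon that exons of opposite-strand genes also cover on the x axis (percent) and its mean over 6 libraries on the y axis (FPKM, linear below 0.1 and logarithmic above). The 33 RNAs with a mean of at least 2 FPKM, in green above the dashed line, reach no further right than 74.8%, and the 31 RNAs at 100% all lie at 0.

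The same was seen in genes that an antisense RNA covers. Of 34 genes whose whole exon lay inside the exons of a single antisense RNA, 33 were listed at 0 in all 6 libraries, and the remaining gene, Lcp65Ag3, had 11 reads over the 6 libraries. Of the 31 protein-coding genes among them, 30 were at 0. They included dUTPase, which encodes an enzyme that keeps uracil out of DNA, Vago, an antiviral response gene, and ppk28, which encodes a water taste channel. These 3 were chosen after their values were seen. By contrast, of 267 genes with up to 25% of their exon covered by an antisense RNA 10 were at 0, and their median was 9.62 FPKM. Among all genes of the table that are not antisense RNAs, 104 of 110 wholly shared with the opposite strand were at 0. These 110 include the 34 genes above, so they are not a separate set. Of 442 wholly shared with the same strand, 422 were at 0. Values of 0 thus went with shared exon on either strand, and the cause was not tested. The sources used here do not give the counting's strand setting, so a value of 0 for these genes cannot be read as an absence of the transcript.

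The FPKM of an antisense RNA was nevertheless divided by its full exon length: with that length the values of all 33 RNAs gave whole reads in every library. Without the exon shared with other genes the levels were higher by a median factor of 1.37, from no difference for asRNA:bsAS to 3.96 for asRNA:CR45396. The levels of asRNA:CR42860, opposite the titin gene sls, and of asRNA:CR45600 went in this way from 2.91 to 11.4 and from 5.14 to 14.1 FPKM. Of 365 antisense RNAs with at least 100 nt of exon left, 69 on this scale, all 33 among them, had a mean of at least 2. The order of levels given next therefore depends on the length used.

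The 2 highest RNAs stood above 10 FPKM and held 21.9% of the summed level of the 33. The median over the 33 was 3.07 FPKM, and the number of reads behind a value ran from 10 to 1935 per library, with a median of 52. asRNA:CR43152 (X, 12973825 to 12974615, minus strand, dm6) had 14.7, 14.2 and 16.3 FPKM in the control libraries and 17.2, 19.3 and 15.0 FPKM in the overexpressing libraries. It overlaps the end of CG15721, which itself had a mean of 0.0405 FPKM. asRNA:CR44370 (2R, 15226938 to 15232665, plus strand) lies inside Fs, which encodes follistatin, an inhibitor of activin-type ligands, and its values are given below. These levels were set apart from the next RNA by more than the spread between libraries, but not from each other.

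The next 6 RNAs stood between 5 and 10 FPKM. asRNA:CR44027 (4, 395396 to 395954, plus strand), over the start of the zinc finger gene dati, had a mean of 8.22 FPKM. asRNA:CR43637 (X, 2200623 to 2201857, minus strand), inside the monocarboxylate transporter gene Mct1, had 7.41 FPKM. asRNA:CR43160 (2R, 20896994 to 20898629, plus strand), inside the homeobox gene otp, had 6.61 FPKM. asRNA:CR44358, inside the receptor tyrosine kinase gene sev, asRNA:CR45813, inside Pcyt1, a gene of phosphatidylcholine synthesis, and asRNA:CR45600, over CG3984 and the start of CG3987, had 5.84, 5.37 and 5.14 FPKM. The library values of these 6 RNAs overlapped between neighbours in the order.

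The other 25 lay between 2.08 and 4.14 FPKM. The lowest included were asRNA:CR31845 at 2.10 and asRNA:CR42254 at 2.08 FPKM, and the highest left out were asRNA:CR43723 at 1.84 and asRNA:CR45908 at 1.81 FPKM. The means of asRNA:CR31845 in the control libraries (1.93) and of asRNA:CR42254, asRNA:CR45396 and asRNA:CR45882 in the overexpressing libraries (1.93, 1.98 and 1.92 FPKM) were themselves under 2.

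**Figure D2:**
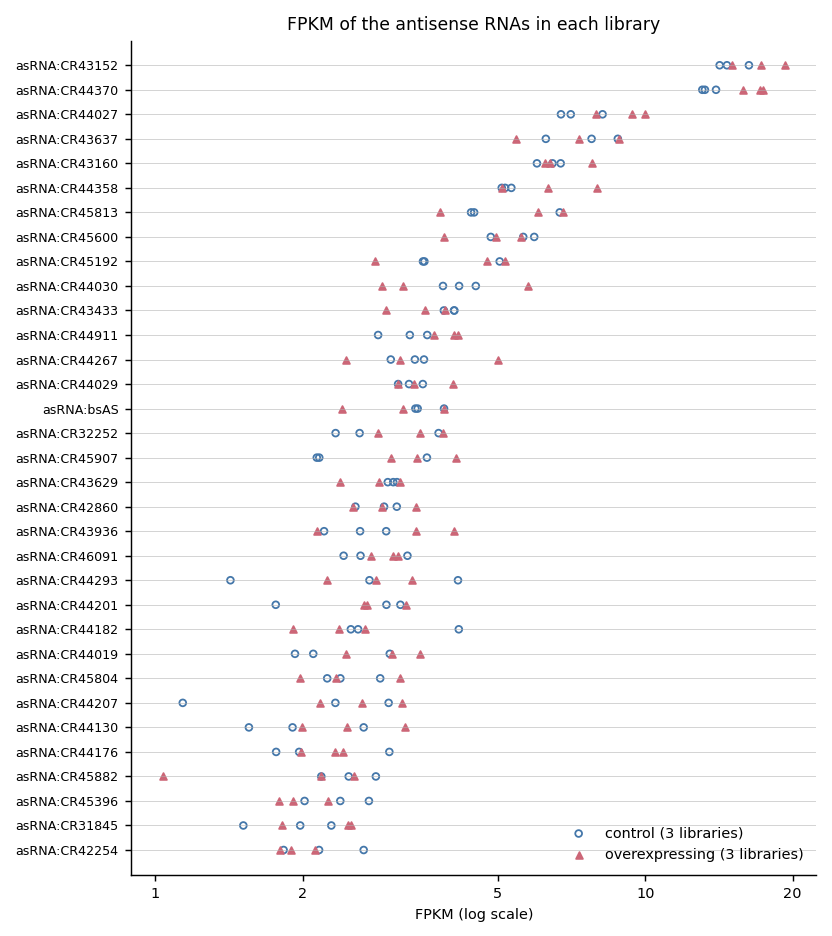
FPKM of the 33 antisense RNAs on a logarithmic x axis, 1 row per RNA ordered by mean, with open circles for the 3 control and triangles for the 3 overexpressing libraries. The groups overlap in all rows but those of asRNA:CR44370 and asRNA:CR44911, where the triangles lie to the right.

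By position, 18 of the 33 RNAs lay inside the bounds of the gene on the opposite strand, 10 reached over its start, 4 reached over its end and 1, asRNA:CR44130, contained a whole gene, CG34211. asRNA:CR45600 is counted among the 10 and also contains all of CG3984. CG34211 and CG3984 are both listed at 0. The 18 inner RNAs had a median of 81.5% of their exon in introns of the opposite gene, from 25.2% to 100%, and 16 of them had over 50% there. Reads from unspliced transcripts of the opposite gene would fall in the same bases, and without a strand setting they cannot be told apart from reads of the antisense RNA. Of the 34 pairs of an RNA and an opposite gene, 24 shared coding exon and 9 shared untranslated exon alone. The shared part made up a median of 7.0% of the opposite gene's exon. By chromosome there were 8 RNAs each on 2R and 3R, 7 on 3L, 4 on 2L and 3 each on X and 4. The fourth chromosome held 3 of the 33 and 10 of all 465 antisense RNAs, against 110 of the annotated genes in the table.

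No antisense RNA of the 33 passed the test between the groups. Of the 33, all of which were tested, limma called 0 at an adjusted p under 0.05 (Benjamini-Hochberg over 12326 genes), where 2.22% of all tested genes were called. At an unadjusted p under 0.05 there were 3, all higher in the overexpressing libraries, where 15.7% of all genes passed. limma-voom on the recovered reads called 1 of 33, asRNA:CR44370, where it called 3.56% of all genes tested. The groups did not overlap for 2 of the 33 (asRNA:CR44370 and asRNA:CR44911), both higher in the overexpressing libraries, where 20.7% of all genes did not overlap, 9.06% as higher and 11.7% as lower. Log2 changes, on the log2(FPKM + 1) scale, ran from -0.30 to 0.33 with a median of 0.07, and 22 were above 0 and 11 below. Over all genes the median was 0.002 and 50.7% were above 0.

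The 95% intervals of all 33 log2 changes lay within 1 unit of 0, with -0.77 (asRNA:CR45882) and 0.79 (asRNA:CR44207) as the outermost bounds. These are units of log2(FPKM + 1), which understate the change of low RNAs, so intervals on the scale of FPKM itself would be wider. The median standard error was 0.14 for the 33 and 0.09 for all genes. The summed level of the 33 was 138.3, 136.9 and 135.7 FPKM in the control libraries and 140.1, 158.6 and 144.4 FPKM in the overexpressing libraries. The sums did not overlap, and the highest was that of overexpressing replicate 2, the library that stood apart. They lean on the highest RNAs, the top 2 of which held 21.9%. asRNA:CR44370 alone had 13.2, 13.9 and 13.1 FPKM in controls and 15.8, 17.4 and 17.2 FPKM in overexpressing libraries. With 11 of the 33 log2 changes below 0, the sums do not show a rise of the 33 as a set.

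**Figure D3:**
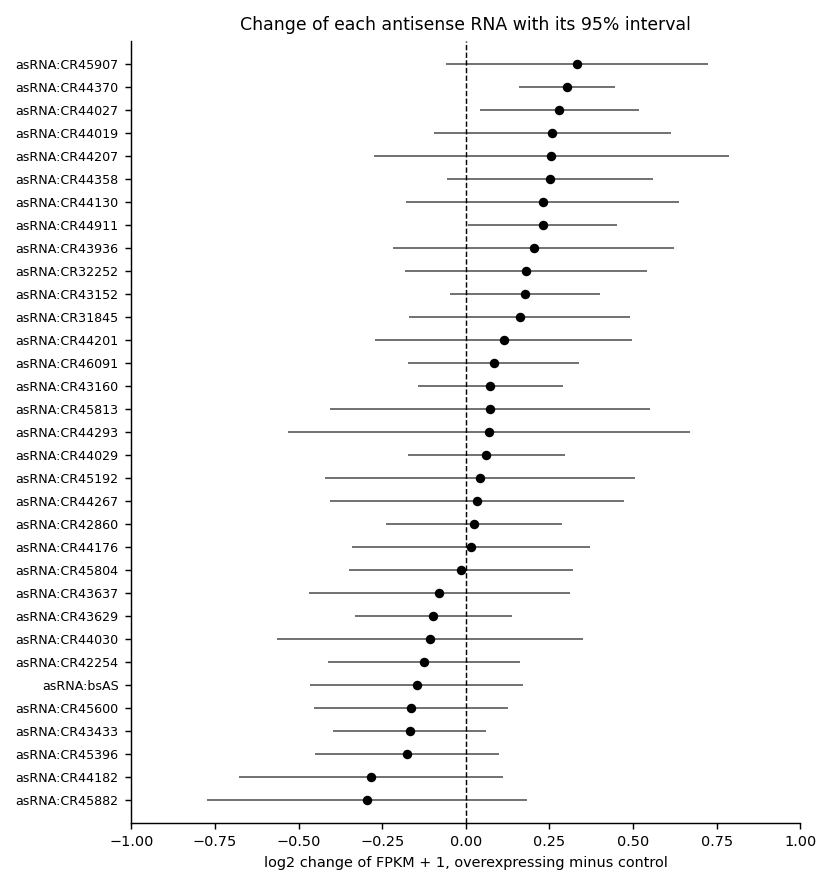
Log2 change of FPKM + 1 (overexpressing minus control, x axis) of each of the 33 antisense RNAs, as a point with its 95% interval from limma. All intervals lie between -0.77 and 0.79, and 3 of them leave out 0 before adjustment for the number of genes, those of asRNA:CR44370, asRNA:CR44027 and asRNA:CR44911.

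asRNA:CR44370, the antisense RNA inside the follistatin gene, came nearest to a call. It had 13.2, 13.9 and 13.1 FPKM in the control libraries and 15.8, 17.4 and 17.2 FPKM in the overexpressing libraries. Every overexpressing library was above every control library, and it had the most reads of the 33, between 1270 and 1935 per library. The ratio of the means was 1.25 and the log2 change 0.30 ± 0.06 (SE, n = 3 each; limma, adjusted p = 0.0564). limma-voom on recovered reads gave an adjusted p of 0.0114. With each column rescaled to the same total limma gave 0.0485, and over all alternatives the adjusted p lay between 0.0114 and 0.192. Fs itself had 1.69, 1.35 and 1.07 FPKM in controls and 1.09, 1.46 and 1.27 FPKM in overexpressing libraries, with overlapping groups (log2 change -0.06 ± 0.14 SE, limma adjusted p = 0.899). The antisense RNA thus had a level of 1142% of that of Fs, per length. Of its exon, 95.5% lies in Fs introns and 4.49% in Fs coding exon. The overlap takes up 6.99% of the exon of Fs, which shares 30.0% with opposite-strand genes in all. The difference of the antisense RNA to Fs moved by 0.36 ± 0.12 log2 units (SE; limma, adjusted p = 0.202 over 2189 opposite-strand pairs).

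The other RNAs did not pass, among them the one other whose groups did not overlap and those with the highest and the lowest log2 change. asRNA:CR44911, over the start of the GMP synthetase gene bur, had 3.31, 2.85 and 3.59 FPKM in controls and 3.70, 4.15 and 4.07 FPKM in overexpressing libraries (log2 change 0.23 ± 0.10 SE; limma, adjusted p = 0.304). Its groups did not overlap, and those of asRNA:CR44027 did, at 8.18, 6.73 and 7.05 against 7.94, 9.99 and 9.41 FPKM (limma, adjusted p = 0.243). asRNA:CR45907, opposite the uridylyltransferase gene Tailor, had the highest log2 change of the 33 (0.33 ± 0.17 SE) on 18 to 40 reads per library. Its values of 2.16, 3.58 and 2.14 FPKM in controls and 4.10, 3.42 and 3.02 FPKM in overexpressing libraries overlapped. The lowest was that of asRNA:CR45882, inside CG32085, at 2.18, 2.82 and 2.48 FPKM in controls and 1.03, 2.54 and 2.18 FPKM in overexpressing libraries. Its low value came from overexpressing replicate 1 alone, on 14 reads.

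Among the genes on the opposite strand, limma called CG31704 alone, as higher, and that call was not stable. Of 34 such genes 32 had values, 29 were tested and limma called 1, where 2.22% of all genes were called. At an unadjusted p under 0.05 there were 5 of 29, where 15.7% of all genes passed. The groups did not overlap for 6 of 29, where 20.7% of all genes did not. Values of the 29 ran from a log2 change of -0.35 to 0.44 with a median of -0.03, 12 above 0. CG31704 (2L, 11840691 to 11841204, plus strand) had 26.6, 22.8 and 27.1 FPKM in controls and 36.5, 32.9 and 35.5 FPKM in overexpressing libraries, which did not overlap. Its log2 change was 0.44 ± 0.08 (SE; limma, adjusted p = 0.0369). The call was lost in 5 of the 6 fits without 1 library, with adjusted p up to 0.125, and held without overexpressing replicate 2. It was also lost with no filter on low values (adjusted p = 0.0597) and with the replicate number as a block (0.0538). asRNA:CR43936, which covers 39.5% of the exon of CG31704 from its start, had 2.96, 2.62 and 2.21 FPKM in controls and 2.13, 3.41 and 4.08 FPKM in overexpressing libraries. Its groups overlapped (log2 change 0.20 ± 0.18 SE; limma, adjusted p = 0.664), and the change of the ratio between this RNA and CG31704 was -0.24 ± 0.20 log2 units (limma, adjusted p = 0.637 over all pairs).

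A further 2 opposite genes were called lower by limma-voom on recovered reads and not by limma. With CG31704, limma-voom called 3 of the opposite genes, where it called 3.56% of all genes tested. Prps, the phosphoribosyl pyrophosphate synthetase gene, had a control mean of 34.0 ± 1.87 FPKM and an overexpressing mean of 27.8 ± 1.75 FPKM (SD over 3 libraries; voom adjusted p = 0.0358, limma adjusted p = 0.0917). Mct1 had means of 15.3 ± 1.79 and 11.7 ± 0.585 FPKM (SD over 3 libraries; voom adjusted p = 0.0423, limma adjusted p = 0.109). Their antisense RNAs, asRNA:CR45804 and asRNA:CR43637, had log2 changes of -0.02 ± 0.14 and -0.08 ± 0.17 (SE). The groups of both antisense RNAs overlapped.

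The changes of the antisense RNAs and of their opposite genes gave no stable correlation across pairs. Over the 29 pairs with both tested, Pearson's r of the log2 changes was 0.177 and Spearman's rho 0.0271, and 14 of 29 had the same sign. Over 2131 other pairs of opposite-strand genes r was 0.0688 and 51.2% had the same sign. These are descriptions across pairs that share the same libraries. The median absolute log2 change of the 33 RNAs, 0.16, was near their median standard error of 0.14, so r cannot tell related from unrelated changes. Without overexpressing replicate 3, r was -0.00641, and without overexpressing replicate 1 it was 0.411. Tested directly, the ratio of antisense to opposite gene changed in 0 of 29 pairs by limma (1 at an unadjusted p under 0.05, 0 called by limma-voom), where 2.33% of 2189 opposite-strand pairs were called and 14.6% had an unadjusted p under 0.05. In level, by full exon length, the opposite gene was higher in 22 of the 29 pairs. The 33 RNAs shared a median of 26.8% of their exon, and the shared part was a median of 7.0% of the opposite gene's exon. The levels of a pair set side by side therefore depend on the length used. The antisense RNA had a median of 27.8% of its partner's FPKM, from 1.50% (asRNA:CR44019 and the cathepsin gene CtsF) to 1142% (asRNA:CR44370 and Fs).

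**Figure D4:**
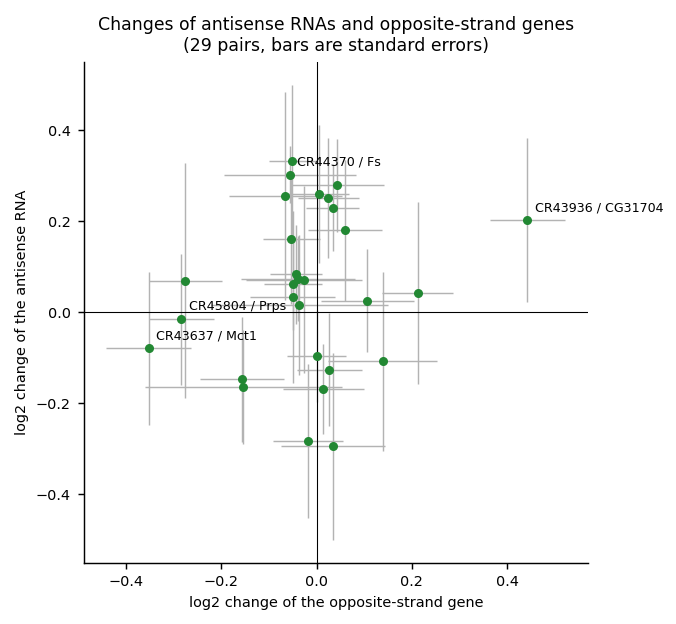
Log2 change of the opposite-strand gene (x axis) against that of the antisense RNA (y axis) for 29 pairs, with bars for the standard errors. The points show no common line (r = 0.177), CG31704 lies farthest right at 0.44, and asRNA:CR44370 lies at 0.30 with Fs at -0.06.

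The antisense RNA with the clearest change lay just below the minimum. asRNA:CR44340 (X, 19495284 to 19495896, minus strand), chosen here after its values were seen, had a mean of 1.76 FPKM. It was the 1 of 69 tested antisense RNAs that limma called, where 2.22% of all tested genes were called. It entered the test through the control libraries, since all 3 overexpressing libraries were under 1 FPKM; with no filter on low values its adjusted p was 0.0161. It had 2.88, 2.30 and 3.45 FPKM in controls and 0.483, 0.894 and 0.548 FPKM in overexpressing libraries, or 98 and 23 reads per group. The groups were well apart (ratio 0.223; log2 change -1.24 ± 0.15 SE; limma, adjusted p = 0.0107). Leaving out control replicate 1 gave an adjusted p of 0.0524, and the call held without each of the other 5 libraries. With the replicate number as a block the adjusted p was 0.0503. It reaches over the shared start of CG14200 and of Pfrx, which encodes the enzyme that makes and breaks down fructose 2,6-bisphosphate, and 63.9% of its exon is shared with them.

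Neither of these opposite genes was called. CG14200 had 8.80, 9.63 and 8.71 FPKM in controls and 10.2, 10.3 and 10.1 FPKM in overexpressing libraries (limma, adjusted p = 0.284). Pfrx had 29.5, 33.2 and 31.9 FPKM in controls and 27.0, 26.8 and 26.7 FPKM in overexpressing libraries (limma, adjusted p = 0.116). The groups of both genes did not overlap, CG14200 being higher and Pfrx lower in the overexpressing libraries. The ratio of asRNA:CR44340 to each fell, with a log2 change of -1.40 ± 0.16 against CG14200 and of -1.01 ± 0.16 against Pfrx (SE; limma, adjusted p = 0.00213 and 0.0101 over all pairs). Both ratios hold the same values of asRNA:CR44340, which was chosen after they were seen and passed the filter through the control libraries alone. They are therefore no separate support for its fall.

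**Figure D5:**
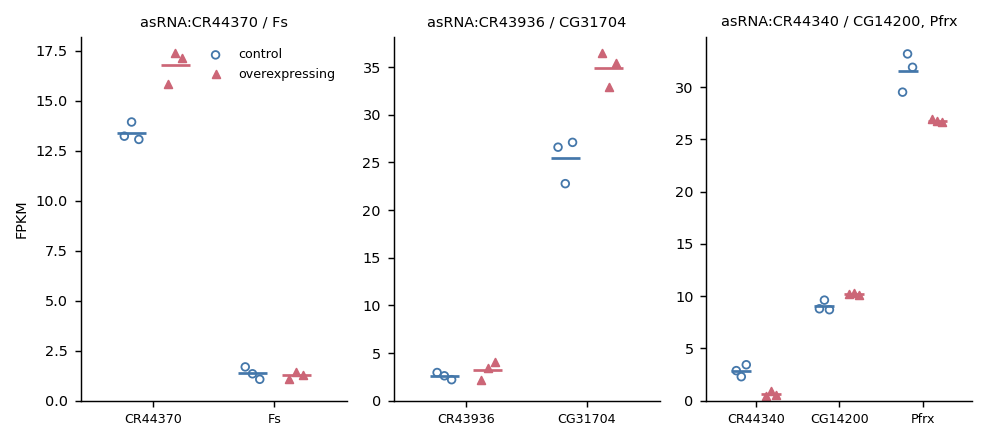
FPKM in each library of 3 antisense RNAs and the genes on the opposite strand, with open circles for the 3 control libraries, triangles for the 3 overexpressing libraries and a line at each group mean; each panel has its own y axis from 0. asRNA:CR44370 and CG31704 are higher in all overexpressing libraries, asRNA:CR44340 is lower in all of them, and asRNA:CR43936 and Fs overlap between groups.

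Genes that act on double-stranded and antisense RNA were measured in the same libraries. Of 14 tested, limma called 0, where 2.22% of all genes were called. At an unadjusted p under 0.05 there was 1, where 15.7% of all genes passed, and the median log2 change was 0.005. AGO2, the Argonaute that carries small interfering RNAs, had a control mean of 49.6 ± 2.25 and an overexpressing mean of 50.7 ± 4.23 FPKM (SD over 3 libraries; limma, adjusted p = 0.900). Dcr-2, the Dicer that cuts long double-stranded RNA, had 9.69 ± 0.168 and 9.54 ± 0.592 FPKM (limma, adjusted p = 0.921). Rm62, an RNA helicase gene, was the most abundant of the list at 121 ± 5.66 and 122 ± 7.31 FPKM (limma, adjusted p = 0.953). pcm, the gene of the cytoplasmic 5′ to 3′ exoribonuclease, had the lowest p of the list, at 12.0 ± 0.128 and 9.88 ± 0.349 FPKM (limma, adjusted p = 0.0758). Of 60 genes of an immune list with values here, 0 lay opposite any of the 465 antisense RNAs. That list leaves out Vago, the antiviral response gene named above, which lies opposite asRNA:CR45604, so the 0 holds for the listed genes only. Of the 59 tested limma called 5 higher and 0 lower, where 2.22% of all genes were called. The 5 were the antimicrobial peptide genes Def, AttC and CecA2, the recognition protein gene PGRP-SD and the stress gene TotM. An unadjusted p under 0.05 in limma was reached by 26 of the 59, where 15.7% of all genes passed.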

How the data were processed

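Per the labels' protocols, poly-T beads purified the mRNA, HISAT2 2.0.5 placed the paired-end reads, and featureCounts 1.5.0-p3 gave the reads per gene. The submitters' processing notes name dm6. The authors deposited 1 table of FPKM values, and how they made FPKM from reads was not stated in the labels. Symbols and coordinates came from the Ensembl release of the dm6 annotation (17252 of 17558 identifiers matched). FPKM times exon length gave whole reads in every library, within 0.01 of a read, for 15276 of 15647 annotated genes above 0 (97.6%). For the group comparison limma 3.58.1 (R 4.3.3, trended eBayes, two-sided) was applied to log2(FPKM + 1) of all genes that reached 1 FPKM in 3 or more libraries, with calls at an adjusted p of 0.05. On this scale the change of low genes is understated. The same model tested the log2 difference of every 2 genes that overlap on opposite strands. The test across genes was checked on simulated data. An exact permutation of 3 against 3 libraries cannot go below p = 0.1. The members and lists were chosen with earlier results of these data known. Named RNAs were those called, the 6 highest, those whose groups did not overlap, those opposite listed immune genes, those beside the minimum, and their opposite genes; from other lists, called genes or the 2 most abundant. Other RNAs and genes named, the seventh and the eighth highest among them, were chosen after their values were seen. Alternatives changed the pseudocount, filter, scaling, minimum mean, length, block, libraries and tool (limma-voom). Opposite genes Pdi and Glo1 were not analysed here.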

Additional observations from a re-analysis of the deposited data

How the results depend on the processing

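The count of called antisense RNAs, 0 of 33, was also 0 with a pseudocount of 0.1, no filter, a minimum of 2 for every gene, the replicate block, a minimum mean of 5 and in each of the 6 fits without 1 library. It was 1 with columns rescaled and 1 with voom (asRNA:CR44370 both times). In 3 other sets it was 1 through asRNA:CR44340, which is not among the 33. These were 66 RNAs with a minimum mean of 1 and 34 with the minimum on the control mean alone. The third, chosen after seeing the data, was 69 by length without shared exon, where 2.25% of all genes were called. A minimum on the control mean admits asRNA:CR44340 through the group where it was higher, so that call is no separate support. The ratio to the opposite gene was called in 0 pairs under every alternative run, of 30 pairs with no filter, 23 with a minimum of 2 for every gene, 28 where exons had to share a base and 29 otherwise. Opposite genes called, 1 in the main test, came to 0 with no filter, 0 with the replicate block, 3 with voom and 0 to 1 without 1 library. All genes called, 274, came to 110 with the replicate block, 422 with voom and 72 to 459 without 1 library. r across pairs ran from -0.00641 to 0.411 without 1 library. The cause of these differences was not tested. The sign of the log2 change held under all 12 alternatives for 20 of the 33 RNAs and changed under at least 1 for 13, none of them past the threshold. Deviations of same-numbered libraries correlated at -0.0528, -0.185 and 0.0327, and not every library correlated best with its own number. With 3 libraries per group, these correlations cannot tell whether same-numbered libraries were handled together. Under the block the limma adjusted p of asRNA:CR44340 was 0.0503 and that of CG31704 0.0538. The 33 had a median of 52 reads per library and a median standard error of 0.14 log2 units; how far depth sets that error was not tested.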
